A study of Rattus norvegicus with 8 samples.

Results

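The 66 splicing regulator genes examined here were chosen from a table of 3′ end counts by gene name. They were the protein-coding entries whose symbol begins with Srsf, Hnrnp, Sf3a, Sf3b or Rbm and a digit, together with Son, Srrm1, Srrm2, Srrm3, Ptbp1, Ptbp2, U2af1 and U2af2. Srrm4, which the naming rule also lists, was not analysed here. The genes held 375 of the 73922 polyadenylation sites of the table and 66 of its 12255 genes. Whole transcriptome termini site sequencing (WTTS-seq), which reads the 3′ ends of polyadenylated RNA, was applied to hypothalamus from adult male rats of the Long-Evans strain. By their labels, 4 rats formed a control group, fed standard chow with 0.51 kcal/g from fat, and 4 a diet-induced obesity group (obesity below), with free access to a high fat diet with 1.71 kcal/g from fat. Both groups were kept on their diets for 36 days, and there was 1 library per rat. The comparison asks which splicing regulators differ in 3′ end abundance between the diets.

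Pre-mRNA splicing removes introns through the spliceosome, and the choice of splice sites is set by RNA-binding proteins around it. SR proteins carry an arginine- and serine-rich domain and mostly promote exon inclusion from exonic enhancers, whereas hnRNPs coat nascent RNA and often repress it. U2AF and the SF3A and SF3B complexes recognise the 3′ splice site and the branch point. Many of these genes regulate their own transcripts through poison exons and retained introns, and in neurons the switch from PTBP1 to PTBP2 is a well-known step of differentiation.

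The libraries held 1417531 to 1957726 reads, of which 9382 to 13740 lay at the 375 sites. Of these sites, 62 had no read in control library 1 and 47 in obesity library 1, while the other libraries lacked 13 to 29. Libraries that carry the same number in the labels deviated together, which is described below, so block values (the library number added to the fit) are given where they changed a call. The hypothalamus markers were present for 11 of 12 genes, and the twelfth, Ghrh, was not analysed here. Their sum was 1213 to 1658 CPM in control and 1015 to 1289 in obesity. Summed neuron markers reached 4581 to 4950 CPM in control and 4013 to 5132 in obesity. Anterior pituitary markers reached up to 56.0 CPM in control and 127 in obesity, and the choroid plexus gene Ttr up to 1.52 and 98.0. Their part in the values below was not tested.

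The splicing regulators together took 92044 reads. Their share of all reads was 0.695% ± 0.0253 (SD, n = 4) in control and 0.684% ± 0.0142 (n = 4) in obesity, and the libraries of both groups overlapped, at 0.662% to 0.724% and 0.667% to 0.702%. The difference of -0.0110 percentage points was smaller than the spread in either group, and over reads at sites with a gene as the denominator it was 0.00210. RBM proteins, a loose group named for their RNA-binding motif, held 34.2% of the reads in 28 genes, and hnRNPs held 28.9% in 16 genes. The 10 SR protein genes held 12.04%, and Son with the Srrm genes 11.0% in 4 genes. SF3A and SF3B subunits held 5.99%, the 2 U2AF subunits 5.58% and the 2 PTB genes 2.25%. The share of Son and Srrm1 to Srrm3 was 0.0832% ± 0.00180 in control and 0.0701% ± 0.0114 in obesity, with 3 obesity libraries below all controls and obesity 2 above them. The U2AF share was 0.0350% ± 0.00387 against 0.0414% ± 0.00207, and the lowest obesity library, at 0.0386%, lay under the highest control, at 0.0392%. These shares are descriptions, with no test.

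**Figure D1:**
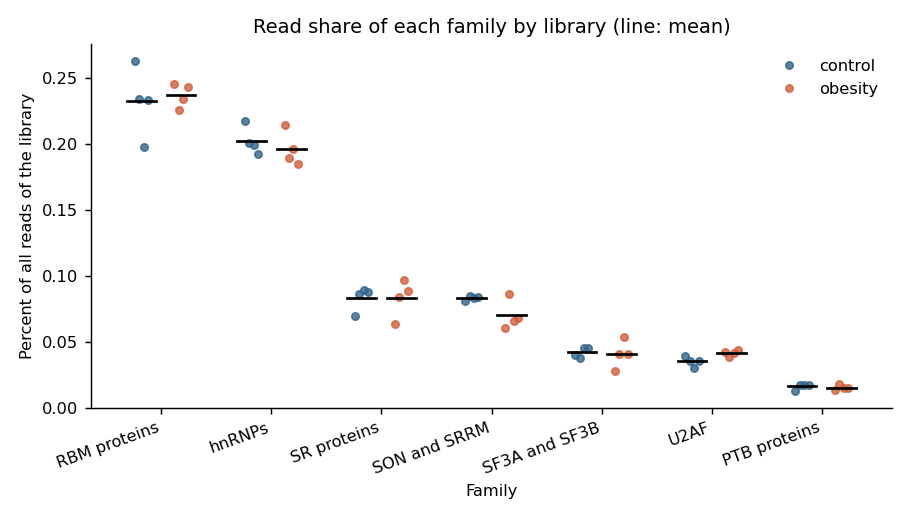
Percent of all reads of each library (vertical axis) at sites of 7 families of splicing regulators; points are libraries, 4 control and 4 obesity per family, and the line is the group mean. The families overlap between groups; for Son and the Srrm genes the controls lie between 0.0808% and 0.0849% while obesity ranges from 0.0601% to 0.0865%.

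Abundance is given below as CPM, in which library sizes were corrected by TMM factors. WTTS-seq counts ends and not fragments along a transcript, so CPM was not divided by gene length. It is a level of 3′ ends and not of whole transcripts, and comparisons between genes are made on that scale only. The median gene had 40.7 CPM, against 22.6 for all 10746 protein-coding genes. At 100 CPM or more there were 18 genes, between 10 and 100 CPM there were 39, and below 10 CPM there were 9. Rbm25l1, whose name marks it as a copy of the U1 snRNP-associated factor gene Rbm25, led with 1494 CPM over the 8 libraries. Its 11 sites lay within 1.20 kb on chromosome 10, whereas the 9 sites of Rbm25 on chromosome 6 spanned 34.6 kb and summed to 78.0 CPM. The similarity of their sequences was not measured here, and how the alignment shared reads between similar genes is unknown, so both levels are uncertain.

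Hnrnpu, which encodes a nuclear scaffold attachment factor, followed with 1034 CPM, and its relative Hnrnpul2 with 463. Sf3b2, a subunit of the branch point complex, had 404 CPM and U2af1, the subunit of U2AF that reads the AG of the 3′ splice site, had 403. Srsf11 (360 CPM) and Srsf4 (347 CPM) were the most abundant SR protein genes. The nuclear speckle genes Srrm2 and Son had 292 and 275 CPM, and Rbm5, a regulator of apoptosis-linked exons, 270. Rbm25l1 stood above Hnrnpu in 7 of 8 libraries, the exception being control 3 (959 against 978 CPM), and Hnrnpu stood above Hnrnpul2 in every library. From Hnrnpul2 down to Rbm5, each neighbour in this order overlapped the next within the spread over libraries. Ptbp1, a repressor of neuronal exons, had 131 CPM and its neuronal relative Ptbp2 52.5. The cold-inducible Rbm3 was near the bottom, at 8.32 CPM.

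**Figure D2:**
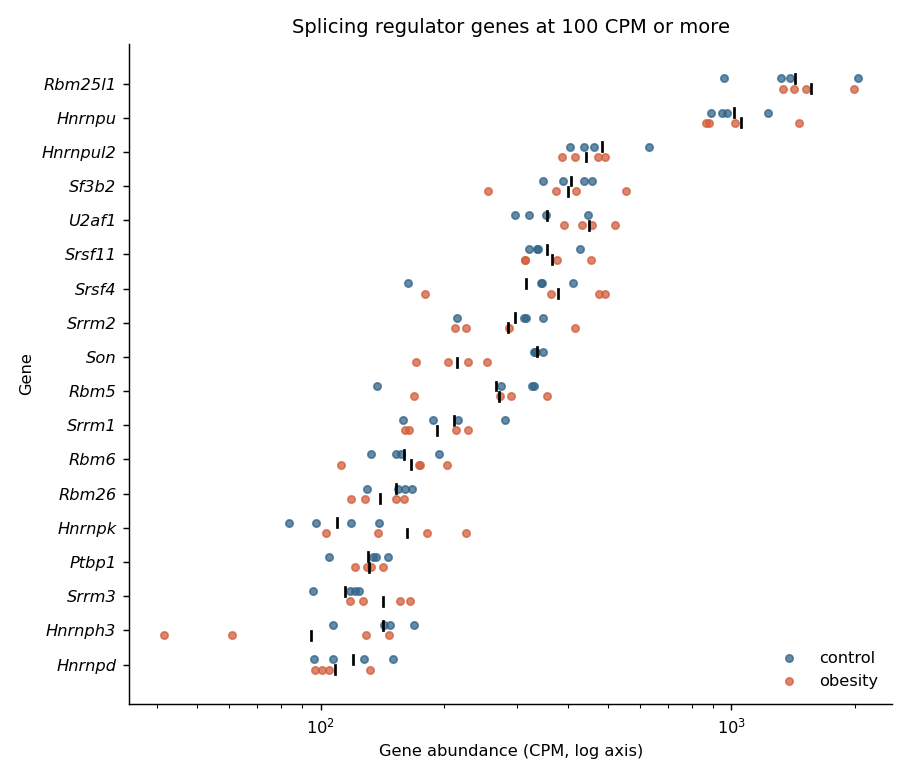
Abundance in CPM (horizontal log axis) of the 18 splicing regulator genes with a mean of 100 CPM or more; points are the 4 control and 4 obesity libraries and the short lines are group means. Son is the only gene shown whose groups do not overlap, with controls from 331 to 348 and obesity libraries from 171 to 254.

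No splicing regulator gene passed an adjusted p of 0.1 between obesity and control in edgeR, with Benjamini-Hochberg adjustment over all 12255 genes, and neither did any other gene (0.0% of all). At an unadjusted p under 0.05, edgeR gave 1 of 66 genes higher in obesity and 1 lower, against 2.54% higher and 2.58% lower of all genes. At 1 gene each, both counts were close to that background. The DESeq2 Wald test called 0 of the 66 at an adjusted p of 0.1, and 0.0326% of all genes. Of the 66 genes, 30 had a positive and 36 a negative log2 fold change, with a median of -0.07 against 0.00 over all genes. In this fit, without the block, the median standard error was 0.35 on the log2 scale. The 95% interval of many of them thus took in changes of 2-fold. It lay within 1 log2 unit of 0 for 33 of the 66 genes, and for 15 of the 18 at 100 CPM or more. Standard errors differed in the block fit, whose intervals were not counted here. Groups did not overlap in 1 of 66 genes, against 3.45% of all genes. With the library number as a block, 1 gene passed an adjusted p of 0.1, against 0.277% of all genes. At an unadjusted p under 0.05, that fit gave 2 higher and 4 lower, against 4.76% and 6.16%. A bulk library cannot tell fewer cells of a type from less RNA per cell, and this holds for every difference below.

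**Figure D3:**
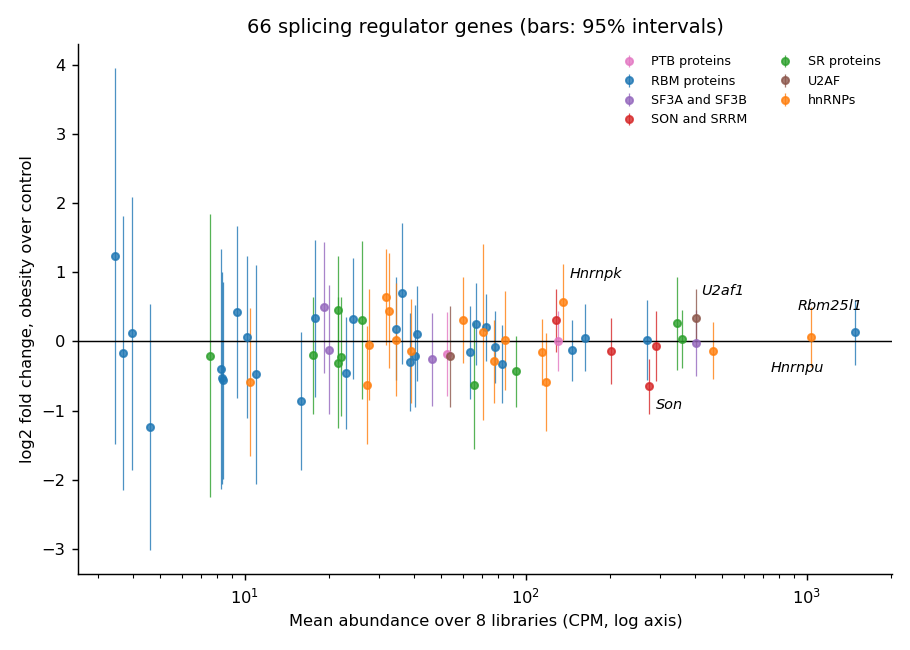
Log2 fold change of obesity over control (vertical axis) against mean abundance in CPM (log axis) for all 66 genes, coloured by family, with 95% intervals from edgeR without the block. The interval excludes 0 for Son, at -0.65, and barely for Hnrnpk, at 0.57, and intervals widen toward low abundance.

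Son encodes a large arginine- and serine-rich protein of nuclear speckles that helps the splicing of introns with weak splice sites. Its gene sum (gene25858, chromosome 11) was 332, 331, 335 and 348 CPM in control libraries 1 to 4 and 171, 254, 204 and 229 CPM in obesity libraries 1 to 4. All 4 obesity libraries lay below all 4 controls, and the controls differed little among themselves. The means were 336 ± 7.98 and 214 ± 35.6 CPM (SD, n = 4 each), from 412 to 494 and 227 to 349 reads per library. The log2 fold change was -0.65 (SE 0.19, 95% interval -1.05 to -0.25), with an unadjusted p of 0.00341 and an adjusted p of 0.921 in edgeR. With the block, Son fell by 0.66 on the log2 scale (SE 0.15), lower in 4 of 4 pairs, with an adjusted p of 0.0850. In the same fit without the libraries numbered 1, 3 or 4, the adjusted p was 0.226, 0.383 and 0.526, and without those numbered 2 it was 0.00506. With both strands summed, the adjusted p in the block fit was 0.112, so the call was lost. The DESeq2 Wald test gave an adjusted p of 0.439 without the block and 0.0146 with it. Among the oligodendrocyte markers, 8 of 8 had a negative log2 fold change, against 6121 of all 12255 genes. Of these markers, 2 had an unadjusted p under 0.05 in edgeR, against 2.54% higher and 2.58% lower of all genes. Negative values were also found for 7 of 11 hypothalamus, 3 of 6 neuron, 3 of 5 astrocyte and 2 of 4 microglia markers. In these lists 3, 1, 1 and 1 markers had an unadjusted p under 0.05 in edgeR. The summed oligodendrocyte level was 17203 to 22668 CPM in control and 13330 to 20998 in obesity. The part of these markers in the Son result was not tested.

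The gene sum of Son covers 8 sites of the plus strand (Rnor_6.0, as the authors give coordinates). Another site, chr11:31830295-31830320 on the minus strand, carried 2.30% of the gene's reads and did not enter the sum. The most 5′ of them, chr11:31812749-31812818, held 52.9% of the reads and lay 18.0 kb upstream of the most 3′ site. It had 332, 272, 186 and 291 reads in the control libraries and 119, 108, 142 and 169 in the obesity libraries. The highest obesity library thus lay below the lowest control library. On the site scale the means were 168 ± 26.1 and 77.2 ± 12.1 CPM (log2 fold change -1.12, SE 0.29), with an unadjusted p of 0.00157 and an adjusted p of 1.00 in edgeR. With the block the adjusted p was 0.161, and without the libraries numbered 2 it was 0.0300. It was the only site among the splicing regulators with an unadjusted p under 0.01 and at least 5 CPM.

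Without this site, the sum over the other 7 Son sites had a log2 fold change of -0.20, with an unadjusted p of 0.439 and an adjusted p of 0.979 in edgeR, and of -0.21 with the block (adjusted p = 0.749). By these values, the difference in the gene sum lay mostly at the most 5′ site. This fit was chosen after the values of the site were seen, so it describes where the difference lay and does not test it. Another abundant site, 13.0 kb upstream of the most 3′ one at chr11:31817887-31817913, averaged 70.8 ± 34.5 CPM in control and 61.5 ± 21.3 in obesity. The most 3′ site, chr11:31830839-31830871, averaged 13.6 ± 11.5 and 18.6 ± 20.8 CPM. At both, the groups overlapped. The most 5′ site took 58.6% ± 11.1 of the Son reads in control and 44.5% ± 8.38 in obesity. It was lower in 4 of 4 pairs, with a 2-sided exact permutation p of 0.114 over 70 arrangements that ignore the library numbers. The edgeR test of site usage, described below, gave Son a Simes p of 0.631, and 0.334 with the block. The shift between sites was thus not shown beyond the spread. Whether the site lies in an intron, exon or UTR was not determined here, because no annotation of that build was used.

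**Figure D4:**
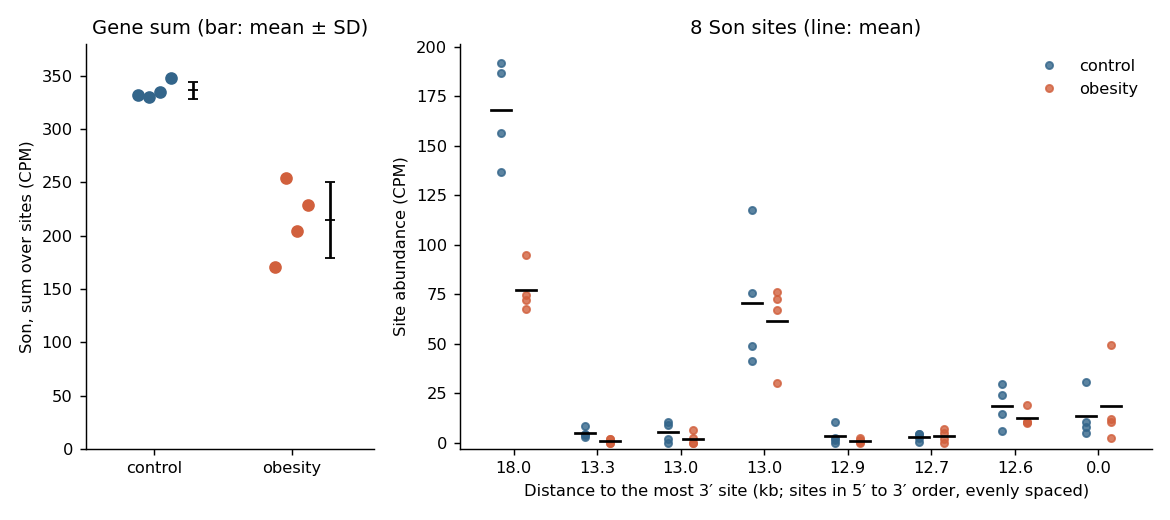
Son in CPM: the left panel shows the gene sum per library with mean ± SD, and the right panel each of its 8 sites in 5′ to 3′ order, labelled by distance to the most 3′ site in kb, with group means as lines. At the most 5′ site, 18.0 kb from the last, the groups do not overlap (means 168 and 77.2 CPM); at the next most abundant site, 13.0 kb from the last, they overlap.

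The SRRM genes beside Son encode SR-related matrix proteins. Srrm2, a speckle scaffold, had 215, 313, 315 and 347 CPM in control and 225, 416, 212 and 287 in obesity. Srrm1 averaged 211 ± 52.3 against 192 ± 34.6 CPM (log2 fold change -0.14, SE 0.22). Srrm3, a neuronal regulator of microexons, averaged 115 ± 12.7 against 141 ± 22.9 CPM (log2 fold change 0.30, SE 0.21), with 3 of 4 pairs higher. The groups overlapped in each of these 3 genes, and none passed an unadjusted p of 0.05 in edgeR.

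Among the 10 SR protein genes, 4 had a positive and 6 a negative log2 fold change, with a median of -0.20, and none reached an unadjusted p of 0.05 without the block. Genes given here and in the next paragraphs as examples of a family, beyond those set by the naming rule, were chosen after their values were seen. Srsf1, the founding member of the family, had 38.2, 131, 79.7 and 67.6 CPM in control and 34.6, 105, 28.7 and 38.1 in obesity. Each obesity library was below the control of its number while the groups overlapped. Its log2 fold change was -0.63 (SE 0.43) without the block and -0.69 with it, with an unadjusted p of 0.0112 and an adjusted p of 0.285 in edgeR. Srsf2, which binds exonic enhancers and marks speckles, averaged 106 ± 23.5 against 79.0 ± 11.6 CPM (log2 fold change -0.43, SE 0.24, adjusted p = 0.923). Srsf4 had 164, 344, 345 and 410 CPM in control and 180, 364, 477 and 493 in obesity. It was higher in 4 of 4 pairs, with a log2 fold change of 0.26 (SE 0.31), and library 1 was low in both groups. The value was 0.05 without control 1 and 0.49 without obesity 1. Srsf11 differed by 0.04 (SE 0.20, 95% interval -0.38 to 0.45). Srsf3 had 0 reads in library 1 of both groups, which allows up to 2.12 CPM in control and 2.25 CPM in obesity, and 4.69 to 15.2 CPM elsewhere.

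The 16 hnRNP genes divided into 8 with a positive and 8 with a negative log2 fold change, with a median of -0.01. Hnrnpk (gene32926, chromosome 17), which binds C-rich RNA, had 83.6, 138, 97.5 and 119 CPM in control and 181, 103, 226 and 138 in obesity. The groups overlapped, and obesity 2 lay below 2 of the controls. Its log2 fold change was 0.57 (SE 0.26, 95% interval 0.02 to 1.11), with an unadjusted p of 0.0441 and an adjusted p of 0.921 in edgeR. With the block, the value was 0.53 and the adjusted p 0.369. In the block fit without the libraries numbered 1, 2, 3 or 4, the adjusted p was 0.755, 0.0193, 0.890 and 0.678. Without obesity 3 alone and no block, the log2 fold change was 0.37, with an unadjusted p of 0.192 in edgeR. Hnrnpk had a site on each strand, chr17:6669971-6669975 on the minus strand with 92.8% of the reads and chr17:6675674-6675691 on the plus strand with the rest. With both strands summed, the log2 fold change was 0.45, with an unadjusted p of 0.0866 in edgeR.

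Hnrnph3, which belongs to the G-run binding hnRNPs, had 142, 148, 169 and 107 CPM in control and 146, 129, 60.9 and 41.5 in obesity. Obesity libraries 3 and 4 were below every control and the others were not. Its log2 fold change was -0.59 (SE 0.33, adjusted p = 0.923) without the block and -0.72 with it, where edgeR gave an unadjusted p of 0.00425 and an adjusted p of 0.213. Without the libraries numbered 1 or 2, the adjusted p in the block fit was 0.0548 and 0.0420, and without those numbered 3 or 4 the gene did not pass 0.1. The relatives Hnrnph1 and Hnrnpf had log2 fold changes of 0.31 (SE 0.30) and -0.63 (SE 0.41). Hnrnpl, a binder of CA repeats, averaged 24.8 ± 3.27 against 38.8 ± 9.74 CPM (log2 fold change 0.64, SE 0.33) with an unadjusted p of 0.0662 in edgeR. That sum takes in a site with 0 control and 34 obesity reads, listed only through its obesity reads (described below). Its fold change and p carry this limit. Hnrnpa2b1, a carrier of RNA into dendrites as well as a splicing factor, was lower in 4 of 4 pairs, with a log2 fold change of -0.29 (SE 0.28). The abundant Hnrnpu had 1227, 949, 978 and 892 CPM in control and 1457, 869, 1019 and 881 in obesity. Its log2 fold change was 0.06 (SE 0.20), and that of Hnrnpul2 was -0.13 (SE 0.20).

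U2af1 had 448, 321, 297 and 354 CPM in control and 521, 391, 433 and 458 in obesity. It was higher in 4 of 4 pairs, although the first control lay above 2 obesity libraries. The log2 fold change was 0.34 (SE 0.19, adjusted p = 0.923) without the block and 0.35 with it, with an unadjusted p of 0.0168 and an adjusted p of 0.331 in edgeR. Its partner U2af2, which binds the polypyrimidine tract, averaged 57.6 ± 26.9 against 49.8 ± 13.8 CPM. The SF3 genes comprised Sf3b2 at 408 ± 49.6 and 401 ± 123 CPM, Sf3b1, the subunit that clamps the branch point, at 50.3 ± 2.81 and 42.3 ± 17.8, and 2 SF3A genes near 20 CPM. The 4 log2 fold changes ran from -0.26 to 0.49. Ptbp1 averaged 130 ± 17.7 and 131 ± 8.73 CPM, a log2 fold change of 0.01 with a 95% interval of -0.42 to 0.45. Ptbp2 averaged 55.7 ± 11.1 and 49.3 ± 11.99 CPM, a log2 fold change of -0.18 with an interval of -0.78 to 0.42 and a range of -0.33 to -0.06 when each library was left out in turn. The groups overlapped in both genes.

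The 28 RBM genes had 14 positive and 14 negative log2 fold changes, from -1.23 to 1.24 with a median of -0.03, and none reached an unadjusted p of 0.05 without the block. The extremes were Rbm7, a part of the nuclear exosome targeting complex, at 4.59 CPM, and Rbm43 at 3.46 CPM, both of low abundance. The related genes Rbm5 and Rbm6 had log2 fold changes of 0.02 (SE 0.28) and 0.06 (SE 0.23), and Rbm10 of -0.30 (SE 0.33). Rbm25l1 had 2029, 1390, 959 and 1319 CPM in control and 1983, 1416, 1334 and 1518 in obesity, a log2 fold change of 0.13 (SE 0.22). Rbm11, which is expressed in brain, had 23.4, 20.7, 23.6 and 14.4 CPM in control and 9.76, 12.2, 18.2 and 4.76 in obesity. It was lower in 4 of 4 pairs, with a log2 fold change of -0.86 (SE 0.47), and the block fit of edgeR gave an unadjusted p of 0.0438 and an adjusted p of 0.438. Rbm3 averaged 9.81 ± 2.30 against 6.82 ± 6.86 CPM, and its log2 fold change of -0.53 (SE 0.73) leaves a wide interval, -2.06 to 1.00. It was -1.45 without obesity 1 and -0.13 without obesity 3.

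The splicing regulators had a median of 4 sites per gene on the strand with most of their reads, against 3 for all 10746 protein-coding genes, and they spanned less of the genome. In genes with 2 or more sites, the median distance from the most 5′ to the most 3′ site was 9.37 kb, against 20.4 kb. A single site was seen in 9 genes (13.6%, against 31.2%), and 10 or more in 11 genes (16.7%, against 12.9%). Srrm2 had the most, 33, followed by Srrm3 with 22 and Rbm6 with 19. Where a gene had 2 or more sites, the most-read one was the most 3′ in 10 of 57 splicing regulators (17.5%), against 35.4% of 7397 protein-coding genes. The most 3′ site held a median of 18.0% of the reads, against 24.7%, and the most-read site 53.3%, against 48.4%. These are descriptions with no test. The genes were also more abundant than the median gene and had more sites, and the comparison was matched for neither. The part of either difference was not tested. A read primed inside an A-rich stretch of RNA is counted as an end, and such sites were not removed here.

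How the reads were spread varied between genes. Ptbp1 had 97.7% of its reads at the most 3′ of 2 sites, and U2af1 had 96.2% at the middle of 3. Hnrnph3 had 91.5% at the most 5′ of 4 sites, 3.30 kb upstream of the last. In Rbm5 the most-read site lay 26.2 kb upstream of the last with 56.4% of the reads, and in Hnrnpu 15.6 kb upstream with 45.1%. Srrm2 was spread widely, with 8.74% at its most-read site. A small share of reads, 0.926% at 12 sites in 10 genes, lay on the other strand and was left out of the gene sums.

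At single sites, none of the 375 passed an adjusted p of 0.1 in edgeR over all 73922 sites, of which 0.00135% passed. Obesity was higher at 3 sites (0.8%) and lower at 4 (1.07%) with an unadjusted p under 0.05, against 1.72% and 1.41% of all sites. Both shares rest on few sites. With the block these counts were 5 and 10 (1.33% and 2.67%), against 2.79% and 3.31%, and again no site passed an adjusted p of 0.1 (0.00541% of all). The DESeq2 Wald test called 0 of them without the block, and 0.0135% of all sites. The groups did not overlap at 12 sites (3.20%), against 3.11% of all. The median log2 fold change was -0.11 over the 375 sites and 0.05 over all sites. Besides Son, the sites under 0.05 lay in Hnrnpl, Srrm2 (a higher and a lower site), Hnrnpa1, Srsf12 and Srsf1, of which those other than the Hnrnpl site were named after their values were seen. The Srsf1 site, chr10:75338857-75338876, had 54, 49, 77 and 63 reads in control and 46, 30, 36 and 40 in obesity. All obesity libraries lay below all controls there, with a log2 fold change of -0.84 (SE 0.38) and an adjusted p of 1.00.

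Site usage, the distribution of reads over the sites of a gene apart from its total, was tested in 57 splicing regulators among 7996 genes. None passed an adjusted p of 0.1 (0.0% of all), and 1 had an unadjusted Simes p under 0.05 in edgeR, against 1.36% of all. That gene was Hnrnpl (gene1579), with a Simes p of 0.00169 and an adjusted p of 1.00 in edgeR. Its most 5′ site, chr1:86998989-86999013 on the plus strand, had 0 reads in each control library and 2, 20, 10 and 2 in the obesity libraries. It was thus read in every obesity library and in no control library. The site took 14.3% ± 13.2 of the Hnrnpl reads in obesity and 0 in control, which is a description with no test, since the usage test on the same reads singled it out. It rests on 34 reads, of which 20 came from obesity library 2. As every site of the table has at least 30 reads, it is listed only through its obesity reads, and the Simes p has the same limit. Without that library, the Simes p of the gene in edgeR was 0.0246. The most abundant Hnrnpl site, 1.71 kb upstream of the last, averaged 12.8 ± 3.66 and 16.8 ± 4.29 CPM.

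Control and obesity libraries with the same number tended to deviate together. Over the splicing regulators, the departure of each gene from its group mean (log2 CPM) correlated at 0.300 to 0.507 between the 4 same-numbered pairs and at -0.454 to 0.344 between the 12 other pairs of a control and an obesity library. These are correlations across genes, which are not independent replicates. A difference between library numbers passed an adjusted p of 0.1 in edgeR for 11 of 66 genes (16.7%), against 10.7% of all genes, and for 56 of 375 sites (14.9%), against 8.66% of all sites. The 2 libraries of a number were the highest 2 or the lowest 2 of the 8 in 33 of 66 genes (50.0%), against 40.1% of all genes. Library number 1 accounted for most, with 9 of 66 genes at the top and 11 at the bottom, against 8.4% and 10.4% of all genes. Whether a number stands for a shared day, batch or litter is not given in the labels.

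The genes that varied with the number were named after their values were seen, and several are well-known regulators. Srsf4 was lowest in number 1, at 164 and 180 CPM, against 344 to 493 elsewhere. Hnrnph2, an X-linked G-run binder, was highest in number 4, at 138 and 163 CPM, against 27.5 to 52.0 elsewhere. Rbm5 was lowest in number 1, at 137 and 169 CPM, against 274 to 355. In each of these genes, the pair of libraries with that number lay apart from all others. Srsf6, which like Srsf4 is a larger SR protein, reached 40.6 and 70.9 CPM in number 3 and 11.3 to 20.7 elsewhere. Hnrnpm had its lowest values in number 1, at 49.6 and 43.6 CPM, and its highest in number 2, at 109 and 129. The remaining genes were Srsf1, Srsf3, Hnrnpu, Rbm4, Rbm25l1 and U2af2. Son was not among them, with an adjusted p of 0.810 for the number.

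**Figure D5:**
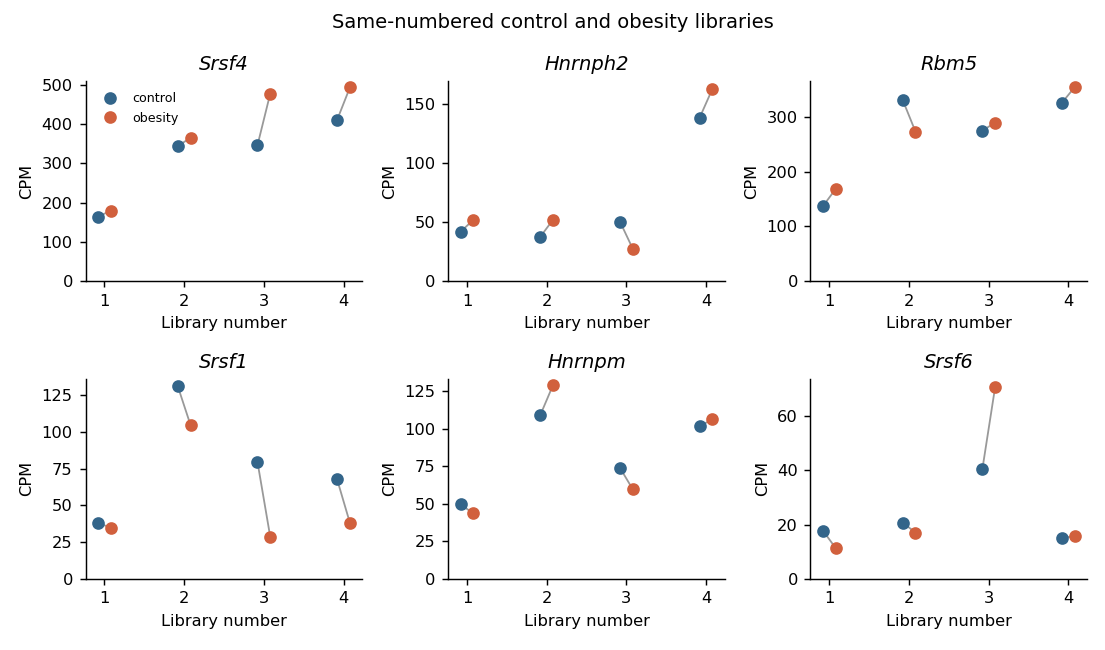
CPM (vertical axis, from 0) of 6 splicing regulators by library number (horizontal axis), with the control and obesity library of a number joined by a line. In Srsf4 and Rbm5 both libraries of number 1 lie apart from all others, and in Hnrnph2 both of number 4, at 138 and 163 CPM.

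Other genes of the splicing machinery were taken from a list of 73 symbols, of which 60 were measured. Of these, 35 had a positive and 25 a negative log2 fold change, with a median of 0.03, and none passed an adjusted p of 0.1 with or without the block. At an unadjusted p under 0.05, edgeR gave 0 of 60 higher and 2 lower without the block, against 2.54% and 2.58% of all genes, and 3 higher and 4 lower with it, against 4.76% and 6.16%. Prpf19, the core of the complex that activates the spliceosome, averaged 146 ± 12.1 CPM in control and 94.8 ± 32.0 in obesity (log2 fold change -0.62, SE 0.26, adjusted p = 0.921). Dhx15, the helicase that disassembles it, averaged 28.2 ± 7.99 and 14.7 ± 6.52 CPM (log2 fold change -0.95, SE 0.42, adjusted p = 0.921). By group, 6 of 10 SR protein kinase and TRA2 genes, 9 of 14 U1 and U2 snRNP genes, 9 of 20 genes of the U4/U6.U5 and catalytic steps and 11 of 16 other regulators had a positive value.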

How the data were processed

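WTTS-seq was performed on total RNA from the hypothalamus of 8 rats, and groups follow the labels. Raw read counts per polyadenylation site were deposited by the authors without normalization. The submitters' processing notes name Bowtie2 2.2.3 and the Rnor_6.0 assembly. Site calling and gene assignment are not given in the sources used here. The lowest site total was 30 reads, so no further minimum was applied. A line without a site (the column total of control library 1) was left out. Reads carry no molecular identifiers. The floors cover counting error only, while the intervals come from the edgeR fit and also take in the spread between libraries.

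Counts per site, and sums per gene over sites on the strand with most of its reads, entered a robust quasi-likelihood F test with TMM factors (edgeR 4.0.16, R 4.3.3). P-values were adjusted after Benjamini-Hochberg over every site or gene, and 0.1 was the threshold. For site usage, diffSpliceDGE gave a Simes p per gene. The share of the most 5′ Son site was compared by a 2-sided exact permutation test. The fits were tested on simulated data. The members and gene lists were chosen with earlier results of these data known. Genes were named if their unadjusted p was under 0.05, if their adjusted p with the block was under 0.1, if they were among the 10 most abundant or the most abundant of a family, or as background examples (Ptbp1, Ptbp2, Rbm3). Sites were named at an unadjusted p under 0.01 and 5 CPM, and genes in site usage at a Simes p under 0.05.

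The alternatives were DESeq2 1.42.0 size factors and its Wald test, a low-count filter, the library number as a block, each library or number left out, both strands summed, the most-read site alone, other site filters and another denominator. The Wald test with the block, both strands with the block and Son without its most-read site were added after seeing the data.

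Over all genes, deviations from the group mean correlated at 0.224 to 0.330 between same-numbered libraries and at -0.174 to 0.0468 otherwise. All 4 pairs exceeded 0.1, so the numbers of the sample titles were read as pairs. The lowest chi-square between 2 libraries was 3.30 per site over 28 pairs, above sampling noise.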

Additional observations from a re-analysis of the deposited data

Results flagged for a closer look

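In control library 1, 3 values stood far from the other 3 controls. The SR protein genes took 0.0696% of its reads, against 0.0865% to 0.0894% in the others. The PTB genes took 0.0125%, against 0.0173% to 0.0174%. Srsf11 reached 428 CPM, against 321 to 338. Obesity library 1 lay on the same side of the other obesity libraries, with 0.0632%, 0.0135% and 456 CPM. These values thus go with the library number, as described above, and not with a single library alone. Of 50 such checks of single libraries, 3 stood out, and chance gives about 1 in 20, or 2.5.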

How the results depend on the processing

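With the replicate block, 1 splicing regulator gene (Son) passed an adjusted p of 0.1 instead of 0, and likewise 1 in the DESeq2 Wald test with the block, but 0 with both strands summed and the block (Son, adjusted p = 0.112 in edgeR). Within the block fit, leaving out both libraries numbered 1 gave 1 gene (Hnrnph3) and those numbered 2 gave 4 (Son, Hnrnpk, Hnrnph3 and Srsf2) and 2 sites (in Son and Hnrnph3). The pairing changed no other call at that threshold. At an unadjusted p under 0.05, the counts of genes higher and lower were 2 and 4 with the block, 3 and 3 without number 1, 3 and 5 without number 2, 0 and 2 without number 3, 2 higher without number 4, and 2 and 3 by the Wald test with the block. With both strands summed 0 were higher, and 4 lower with the block added. Sites higher and lower were 5 and 10 with the block, 7 and 15 without number 1, 6 and 14 without number 2, and 5 higher without number 3, while a low-count filter left 1 higher and the Wald test 7. The gene-level F test gave 2 genes for site usage. For the counts of this paragraph beyond the block fit on all 8 libraries, no share over all genes or sites is given. Without that background, they cannot be read as particular to the splicing regulators.

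Leaving out 1 library gave 0 genes, sites and usage calls past the adjusted threshold. It gave 0 to 1 genes higher and 1 to 4 lower, 1 to 7 sites higher and 1 to 9 lower, 1 to 3 usage genes, a median gene log2 fold change of -0.11 to 0.0014, and a read share difference of -0.0219 to -0.00132 percentage points. The 7 higher and 9 lower sites and the 3 usage genes came without obesity 2. Shares over all genes and sites are not given for these fits either. With the most-read site alone, the median was 0.062, Sf3b2 0.081 and Srrm2 0.011. Signs also turned in the block fit for Hnrnpu (-0.029), Sf3b2 (0.11), Rbm5 (-0.027) and Ptbp1 (-0.043) without number 1, for Ptbp1 (-0.0051) without number 2, and for Srsf11 (-0.0083), Srrm2 (0.069) and Ptbp2 (0.020) without number 3. With 1 library left out, the ranges that crossed 0 were Rbm25l1 -0.011 to 0.35, Hnrnpu -0.13 to 0.17, Hnrnpul2 -0.21 to 0.022, Sf3b2 -0.22 to 0.14, Srsf11 -0.086 to 0.14, Srrm2 -0.30 to 0.060, Rbm5 -0.19 to 0.19 and Ptbp1 -0.080 to 0.070. None of these genes was called in any fit, and the cause was not tested. Depth at single sites was low, with a median of 70 reads summed over the 8 libraries.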
